A study of Mus musculus with 48 samples.

Results

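The keratin genes Krt75, Krt17, Krt6a, Krt6b, Krt16 and Krt79 were followed over the hair cycle in 3 domains of mouse skin and in the ear. These 6 genes were taken by name from the 46983 genes of each deposited table, and all 6 were found in both tables. Keratins form the intermediate filaments of epithelial cells as pairs of a type I and a type II protein. The type I members here are Krt16 and Krt17, and the other 4 are type II. In the hair follicle, Krt75 marks the companion layer, the cell layer between the inner and the outer root sheath, and Krt6a, Krt16 and Krt17 are made in the companion layer and the outer root sheath. The same 3 genes, with Krt6b, are known as stress keratins because wounded or inflamed interfollicular epidermis, which makes little of them at rest, switches them on. Krt79 marks the funnel-shaped upper part of the follicle and the sebaceous duct. The hair cycle runs through growth (anagen), regression (catagen) and rest (telogen). Telogen has a refractory phase, which resists growth signals, and a competent phase, which answers them.

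Whole skin of C57BL/6 mice, with no transgene or treatment named in the labels, was dissected from 3 domains, namely chin, ventral and dorsal skin. Each domain was sampled in competent and refractory telogen, in early, mid and late anagen, and in catagen. The study equates competent telogen with the first telogen and refractory telogen with the early second telogen. The 2 telogen labels thus stand before and after the sampled anagen, and a mean over both spans 2 rest periods. These 18 groups had 2 or 3 libraries each, 43 in all. A second table held 3 libraries of the ear cartilage and muscle complex, 2 of ear skin in telogen and 2 of dorsal skin in competent telogen. The latter 2 held the same values as in the first table, so that 48 libraries were distinct. Mouse age, and whether libraries came from separate mice, were not given in the sources used here, so p-values measure the spread between these libraries, which may be technical. Levels are given in FPKM, fragments per kilobase of transcript scaled to sequencing depth, a scale on which genes can be compared per length. Differences were tested on log2(FPKM + 1) with limma, with p-values adjusted by the Benjamini-Hochberg method over all genes tested and a threshold of 0.05. Depth, read approximately from the size of single-fragment FPKM steps, ran from 6.501e+06 to 2.436e+07 fragments per skin library.

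Several stage labels went against stage markers, and 1 library of ventral catagen carried an ear location in its label against its title. Genes of the inner root sheath, a structure of growing follicles, were high in all 18 skin groups, where the mean of Krt71 ran from 1779 to 11930 FPKM. Ear skin in telogen had 58.8 FPKM of Krt71. The dorsal libraries labelled competent telogen correlated with the chin late anagen libraries at r between 0.9809 and 0.9833 over all genes tested, as high as the replicates of the same groups did (0.9823 and 0.9807). For 5 of the 6 keratins the libraries of these 2 groups overlapped. The mean of 10 cell division genes was highest in dorsal early anagen (5.22 on the log2(FPKM + 1) scale), stood at 4.96 in ventral and 4.70 in chin competent telogen, and was lowest in ventral early anagen (2.04), below the 3 refractory telogen groups (2.27 to 2.47). For these reasons each comparison of anagen with telogen is also given with refractory telogen alone. Groups labelled catagen were high in such markers too. Mki67, a cell division gene, had its highest group mean in dorsal catagen (22.94 FPKM). The cell division mean of chin catagen (4.311) was above chin mid (3.981) and late anagen (3.688). The inner root sheath mean was 11.215 in chin, 11.062 in ventral and 10.667 in dorsal catagen. Skeletal muscle genes differed between groups as well, with a mean of 8 genes from 3.73 in ventral catagen to 9.31 in chin refractory telogen. In bulk skin, fewer cells of a type and less RNA per cell cannot be told apart.

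The 6 genes lie in the 2 keratin clusters of the mouse genome (GENCODE vM21 on GRCm38, the mm10 build of the files), all on the minus strand. Krt16 (chr11:100246091-100248902) and Krt17 (chr11:100256217-100261029) are neighbours, 7314 bases apart. Krt75 (chr15:101563345-101573904), Krt6b (chr15:101676023-101680287), Krt6a (chr15:101689910-101694307) and Krt79 (chr15:101929332-101940324) lie on chromosome 15. Krt6b and Krt6a are 9622 bases apart and nearly the same in sequence. Their coding sequences were identical at 1625 of 1662 aligned bases (97.8%), and 44.5% of all stretches of 50 bases in the Krt6b transcript also occurred in that of Krt6a. For comparison, Krt16 and Krt17 were identical at 78.2% of aligned coding bases, and Krt6a and Krt75 at 75.9%. The 90 coding bases without a gap in which Krt6a and Krt6b differ most, bases 787 to 876 of each coding sequence, are shown because fragments can be assigned to one gene or the other only where such differences occur. Capitals mark the 12 bases that differ.
Krt6a: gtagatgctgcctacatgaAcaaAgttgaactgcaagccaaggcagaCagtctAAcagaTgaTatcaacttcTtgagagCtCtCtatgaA
Krt6b: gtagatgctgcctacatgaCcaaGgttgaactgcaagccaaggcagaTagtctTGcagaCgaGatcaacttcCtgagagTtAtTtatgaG
The values of this pair are therefore uncertain where both are expressed. Where Krt6a was highest, in ventral early anagen (769.06 to 813.44 FPKM), Krt6b was at 0.1 to 0.2 FPKM, between 0.0123% and 0.026% of Krt6a. An antisense gene of the annotation (Gm49428) overlaps Krt6a and is not listed in the tables. The SMART-seq2 protocol of the libraries does not mark strand, so its reads cannot be told apart from those of Krt6a.

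Krt17 was the most abundant member per length in every skin group. Its share of the summed FPKM of the 6 genes ran from 65.0% in ventral early anagen to 89.7% in ventral mid anagen. Summed, the 6 genes were lowest in dorsal catagen (mean 1536 FPKM) and highest in ventral early anagen (5566 FPKM). The summed type I to type II ratio was lowest in ventral early anagen (2.85) and highest in ventral mid anagen (9.23). Krt6b was close to absent from the skin. It exceeded 1 FPKM in 3 of 43 libraries and was estimated, to the nearest whole fragment, at no more than 3 fragments in 25 of them, of which 9 were listed at 0.

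**Figure D1:**
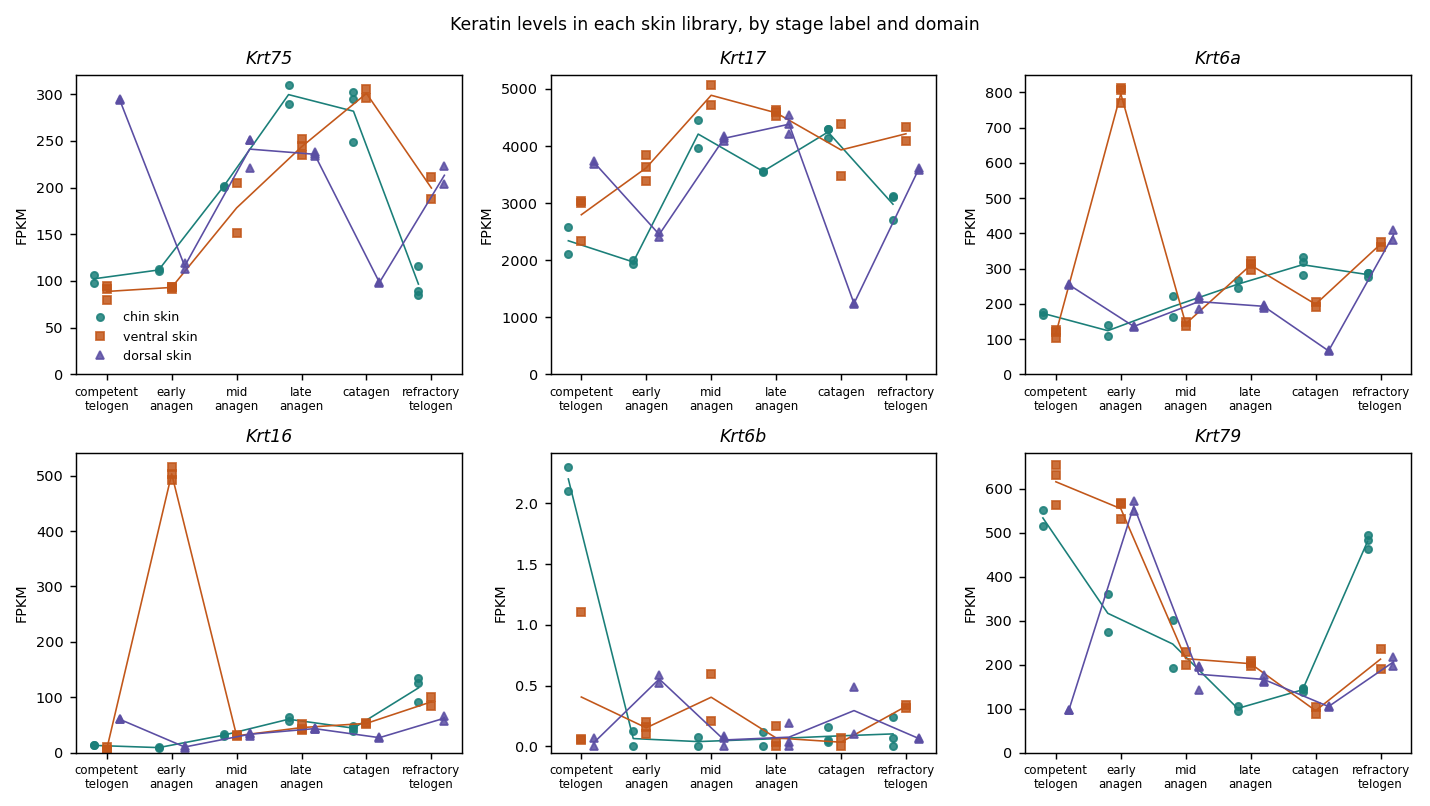
Levels of the 6 keratin genes (FPKM, linear axes) in each of the 43 skin libraries (points) by stage label, with lines through the group means of chin (circles), ventral (squares) and dorsal skin (triangles). Axes start at 0, except for Krt6b, where the axis starts just below 0. Krt6a and Krt16 stand above all other groups in ventral early anagen, Krt75 and Krt79 run in opposite directions in most groups, and dorsal competent telogen and dorsal catagen lie apart from the other domains for several genes.

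The companion layer gene Krt75 was lower in competent telogen and early anagen than in late anagen and catagen of chin and ventral skin, while refractory telogen was low in the chin and intermediate in ventral skin. In chin skin it was at 106.5 and 98.01 FPKM in competent telogen, 110.98 and 112.5 in early anagen, 202.03 and 200.55 in mid anagen, 309.68 and 289.62 in late anagen, 248.53, 294.84 and 302.17 in catagen, and 89.19, 116.23 and 84.5 in refractory telogen. The libraries of mid anagen, late anagen and catagen all lay above those of the other 3 stages. In ventral skin it was at 94.78, 91.23 and 80.08 FPKM in competent telogen, 91.71, 93.93 and 93.49 in early anagen, 151.43 and 205.06 in mid anagen, 251.77, 244.88 and 234.44 in late anagen, 305.41 and 296.42 in catagen, and 211.73 and 187.34 in refractory telogen. Here refractory telogen overlapped mid anagen. Dorsal skin followed another order, with 293.56 and 294.43 FPKM in competent telogen, 119.09 and 112.64 in early anagen, 251.25, 251.23 and 221.3 in mid anagen, 237.78, 235.7 and 233.71 in late anagen, 97.87 and 98.77 in catagen, and 222.92 and 203.47 in refractory telogen. By label, catagen was the lowest dorsal stage of Krt75, while ventral catagen had the highest of the 18 group means (300.9 FPKM) and ventral competent telogen the lowest (88.7). In that order 12 of 17 neighbouring groups overlapped.

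Krt79, the gene of the upper follicle, showed nearly the reverse order. In chin skin it was at 552.12 and 515.5 FPKM in competent telogen, 359.89 and 273.76 in early anagen, 192.34 and 301.5 in mid anagen, 106.01 and 94.72 in late anagen, 136.63, 146.38 and 145.56 in catagen, and 494.05, 484.24 and 463.01 in refractory telogen. The 2 chin telogen groups lay above all other chin libraries. In ventral skin it was at 653.64, 631.37 and 563.28 FPKM in competent telogen, 531.13, 568.69 and 564.91 in early anagen, 199.35 and 227.84 in mid anagen, 196.02, 203.36 and 207.17 in late anagen, 103.19 and 87.3 in catagen, and 189.04 and 235.87 in refractory telogen. Ventral competent telogen and early anagen overlapped, and both lay above the other 4 ventral stages. In dorsal skin it was at 97.42 and 95.71 FPKM in competent telogen, 572.7 and 549.04 in early anagen, 195.94, 195.37 and 142.83 in mid anagen, 175.69, 163.6 and 160.12 in late anagen, 103.96 and 105.46 in catagen, and 216.63 and 195.91 in refractory telogen. Every dorsal library outside early anagen was at or below 216.63 FPKM. Over the 18 group means of log2(FPKM + 1), Krt75 and Krt79 had a Pearson r of -0.79, a description over groups whose values also share each library's depth and skin composition. The ratio of Krt79 to Krt75 ran from 0.316 in ventral catagen to 6.95 in ventral competent telogen. Dorsal catagen did not follow the inverse relation, as both genes were low there.

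**Figure D2:**
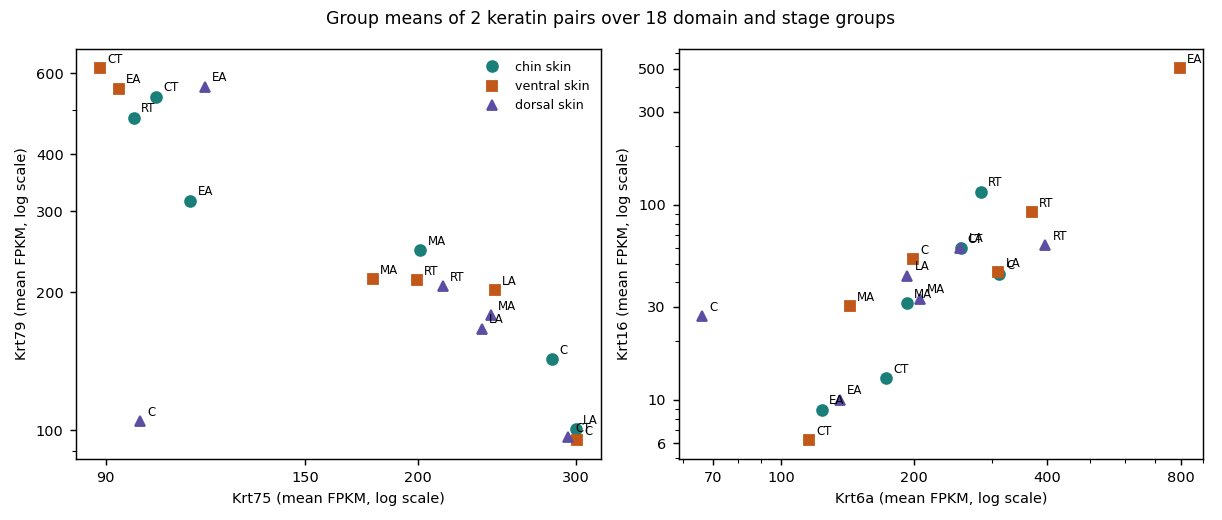
Mean FPKM of Krt79 against Krt75 (left) and of Krt16 against Krt6a (right) in the 18 groups, on log axes, for chin (circles), ventral (squares) and dorsal skin (triangles), with CT for competent telogen, EA, MA and LA for early, mid and late anagen, C for catagen and RT for refractory telogen. Krt79 tends to be lower where Krt75 is higher, with both low in dorsal catagen, and the ventral early anagen point lies apart at the top right of the plot of Krt16 and Krt6a.

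Krt17 is a type I keratin of the outer root sheath and companion layer. Its group means ran from 1240 FPKM in dorsal catagen to 4889 in ventral mid anagen, a ratio of 3.94, and 12 of 17 neighbouring groups overlapped. In chin skin it was at 2576.24 and 2102.33 FPKM in competent telogen, 1924.92 and 2009.89 in early anagen, 4461.24 and 3956.8 in mid anagen, 3543.06 and 3568.28 in late anagen, 4298.23, 4141.86 and 4294.51 in catagen, and 3098.97, 3131.06 and 2710.57 in refractory telogen. The 3 middle stages of the chin lay above both telogen groups and early anagen. In dorsal skin, catagen stood apart with 1251.71 and 1227.86 FPKM, below 2406.73 to 4544.94 in the other dorsal libraries. Ventral libraries lay between 2342.29 FPKM in competent telogen and 5060.85 in mid anagen.

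Krt6a and Krt16, which pair as stress keratins, were highest in ventral early anagen. Krt16 was at 515.84, 502.7 and 491.59 FPKM there, and no library of another group exceeded 133.83, which was a chin refractory telogen library. Krt6a was at 806.2, 813.44 and 769.06 FPKM there, against at most 410.09 elsewhere, in dorsal refractory telogen. The 3 ventral early anagen libraries were close to each other for both genes and did not overlap any other group. Outside that group, Krt16 was highest in refractory telogen of each domain, with 133.83, 90.54 and 125.73 FPKM in chin, 83.19 and 100.12 in ventral and 66.3 and 57.83 in dorsal skin, where it overlapped dorsal competent telogen (60.21 and 59.88). It was lowest in ventral competent telogen (4.59, 10.08 and 4), chin early anagen (9.32 and 8.51) and dorsal early anagen (11.02 and 8.99). The group means of Krt16 spanned a ratio of 80.9, compared with 12.0 for Krt6a, 6.47 for Krt79 and 3.39 for Krt75. Over the 18 group means, Krt6a and Krt16 had a Pearson r of 0.82, Krt17 and Krt75 of 0.68, and Krt6a and Krt17 of 0.61.

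Krt6a, the type II partner, was at 375.99 and 362.53 FPKM in ventral and 410.09 and 380.83 in dorsal refractory telogen, which did not overlap but differed by 0.10 on the log2 scale (SE 0.11). In chin refractory telogen it was at 286.02, 286.8 and 276.11, overlapping chin catagen (282, 318.19 and 332.67). Dorsal catagen was lowest (65.04 and 67.67). The only skin libraries with Krt6b above 1 FPKM were both chin competent telogen libraries (2.1 and 2.3) and 1 of 3 ventral competent telogen libraries (1.11, against 0.06 and 0.05 in the others).

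The genes whose group means were most like each member's, among 9448 genes with a mean of at least 5 FPKM over the 18 groups, were named by Pearson r on log2(FPKM + 1). For Krt75 they were Slc7a8 (0.97), 2310007B03Rik (0.94) and Gprc5a (0.94). For Krt79, Skint1 (0.965) and Sptssa (0.964) were among them. Krt17 ran with Rnf39 (0.95), Sh3bp5l (0.93) and Prss8 (0.92). Krt6a ran with Myo1d (0.93), Hr (0.91) and Prss22 (0.91), and Krt16 with Rnase12 (0.88), Cryab (0.86) and Cyp1b1 (0.86). For Krt6b the nearest were Rhoa (0.76), Arl6ip1 (0.75) and Smco4 (0.71), on values mostly near 0. These are descriptions over 18 means, with no test.

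The anagen and telogen labels were compared as the mean of mid and late anagen minus the mean of both telogen labels, within each domain. These labels need not separate growth from rest. The mean of the cell division genes was 4.695 in chin competent telogen, above chin mid (3.981) and late anagen (3.688). In ventral skin it was 4.963 against 4.365 and 4.097. Dorsal competent telogen (3.736) was below dorsal mid (4.448) and late anagen (4.414), and refractory telogen was below both in each domain. In chin skin, Krt75 and Krt17 rose and Krt79 and Krt6b fell. Krt75 was higher in anagen by 1.30 on the log2 scale (SE 0.08, limma adjusted p = 2.9e-13) and Krt17 by 0.55 (SE 0.07, adjusted p = 6.1e-07). Krt79 fell by 1.70 (SE 0.10, adjusted p = 1.6e-13). The log2 difference of Krt6b was -0.84 (SE 0.14, adjusted p = 1.5e-05). It was -1.61 against competent telogen and -0.07 (adjusted p = 0.78) against refractory telogen alone. Thus 4 of 6 members passed, beside 42.6% of all 21257 genes tested. Krt6a (-0.01) and Krt16 (0.14) did not pass as measured over both telogen labels. Krt16 differed by -1.39 (adjusted p = 3.8e-08) against refractory telogen and by 1.67 (adjusted p = 4.1e-08) against competent telogen, so that its direction depended on the telogen label. Krt6a behaved alike, with -0.36 (adjusted p = 0.0012) and 0.35 (adjusted p = 0.0071). Krt75, Krt17 and Krt79 passed in the same direction against either label. In all, 5 of 6 members passed against refractory telogen and 6 of 6 against competent telogen, beside 45.8% and 35.6% of all genes. The median over all genes was -0.17 in chin skin, and these changes stand relative to that.

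In ventral skin, 5 of 6 members differed between anagen and competent telogen (45.7% of all genes), and 2 of 6 between anagen and refractory telogen (31.2%). Against both labels, Krt75 rose by 0.64 (SE 0.08, adjusted p = 2.1e-07), Krt16 by 0.60 (SE 0.14, adjusted p = 0.0011) and Krt17 by 0.47 (SE 0.07, adjusted p = 6.2e-06), while Krt79 fell by 0.79 (SE 0.10, adjusted p = 3.0e-07). This was 4 of 6 members, beside 31.8% of all genes. The 2 that passed against refractory telogen alone were both lower in anagen, Krt16 (-1.28, adjusted p = 2.1e-06) and Krt6a (-0.81, adjusted p = 1.8e-07). Krt75 then differed by 0.06 (adjusted p = 0.76), Krt79 by -0.02 (adjusted p = 0.95) and Krt17 by 0.17 (adjusted p = 0.18). Krt6a was 0.03 over both labels, and Krt6b -0.13, neither past the threshold.

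In dorsal skin, Krt6a and Krt16 fell in anagen whichever telogen label was used. Krt6a fell by 0.67 (SE 0.07, adjusted p = 4.1e-08) and Krt16 by 0.68 (SE 0.14, adjusted p = 0.00028). Against refractory telogen alone the log2 differences were -0.99 (adjusted p = 2.3e-09) and -0.70 (adjusted p = 0.0021). Krt17 rose by 0.22 (SE 0.07, adjusted p = 0.017) and Krt79 by 0.28 (SE 0.10, adjusted p = 0.032), so that 4 of 6 members passed, beside 31.4% of all genes. Leaving out dorsal competent telogen replicate 2 or dorsal refractory telogen replicate 2 left 2 of 6 members past the threshold. Against refractory telogen alone 3 of 6 passed and against competent telogen alone 4 of 6, beside 33.8% and 22.8% of all genes. Krt79 had 0.82 (adjusted p = 1.4e-05) against competent telogen and -0.27 (adjusted p = 0.11) against refractory telogen. Krt75 (-0.07) and Krt6b (0.02) did not pass.

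**Figure D3:**
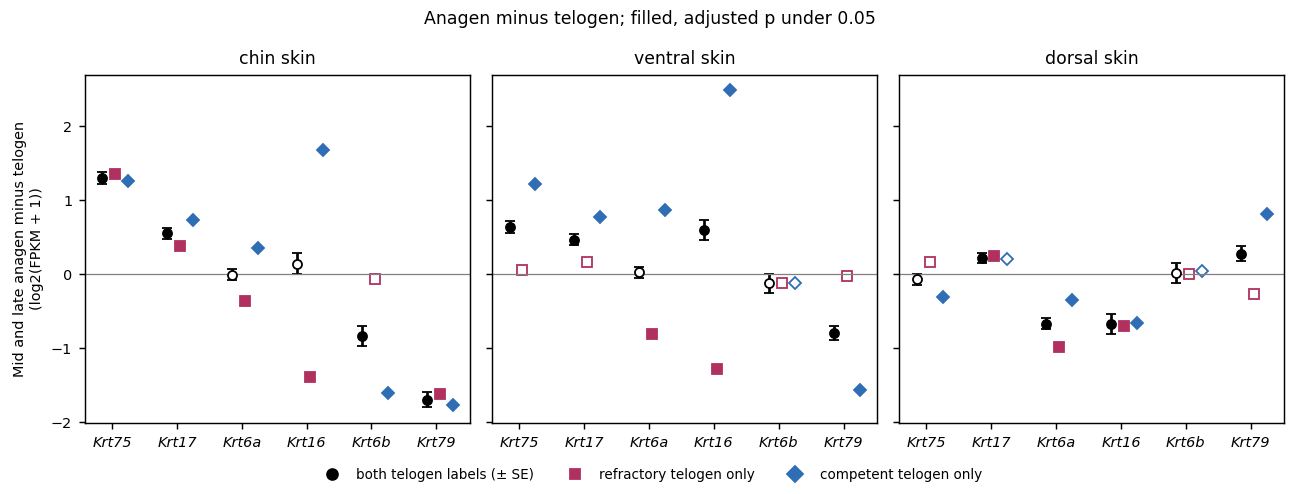
Difference between mid and late anagen and telogen in log2(FPKM + 1) for each keratin in the 3 domains, against both telogen labels (circles, bars show ± SE), refractory telogen alone (squares) and competent telogen alone (diamonds), with filled symbols for an adjusted p under 0.05. Krt75 and Krt79 hold their direction in chin skin under all 3, Krt16 and Krt6a are below 0 against refractory telogen in all 3 domains, and only in chin and ventral skin do they lie above 0 against competent telogen.

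Whether the anagen to telogen difference itself differed among the domains was tested with an F-test. All 6 members passed, beside 42.2% of all genes, led by Krt79 (adjusted p = 4.7e-11) and Krt75 (adjusted p = 5.8e-10). With refractory telogen alone, 4 of 6 passed, beside 41.3% of all genes, which were Krt75 (adjusted p = 1.1e-08), Krt79 (adjusted p = 3.0e-08), Krt6a (adjusted p = 0.00068) and Krt16 (adjusted p = 0.044). The interaction of domain with all 6 stages passed for 6 of 6 members, beside 73.3% of all genes. Over the 6 stages within a domain, 6 members differed in chin skin (66.2% of all genes), 5 in ventral skin (70.2%) and 5 in dorsal skin (68.5%), Krt6b being the exception in ventral and dorsal skin (adjusted p = 0.17 and 0.054). The shares of all genes in the interaction and the stage tests are high, so the members' counts in those tests stand close to the background.

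The domains were then compared at each stage. In early anagen, Krt16 was 50.9 times as high in ventral as in chin skin on the FPKM + 1 scale, a log2 difference of 5.67 (SE 0.19), and Krt6a was 6.44 times as high (2.69, SE 0.10). Dorsal and chin early anagen did not differ detectably in either gene (Krt16 0.15, SE 0.21, adjusted p = 0.67, Krt6a 0.14, SE 0.11, adjusted p = 0.39). Among the 3 domains 5 of 6 members passed, beside 51.6% of all genes, with an adjusted p of 1.6e-20 for Krt16 and 4.8e-19 for Krt6a. In a comparison of chin and dorsal skin alone, chosen after the values were seen, 3 of 6 passed, beside 27.0% of all genes. These were Krt79 (0.84 higher in dorsal skin, adjusted p = 0.00016), Krt17 (0.32, adjusted p = 0.031) and Krt6b (0.55, adjusted p = 0.046).

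Other genes also set ventral early anagen apart. Relative to the mean of chin and dorsal early anagen, the median log2 difference over all genes was -0.09. The 15 epidermal stress genes had a median of 0.21. Among them Sprr2h (2.64), a cornified envelope gene, and Slpi (2.63), a protease inhibitor, were higher, and Gjb2 (-2.02), a gap junction gene, and Areg (-1.39), an EGF receptor ligand, were lower. In the F-test among the 3 domains 10 of these 15 genes passed, beside 51.6% of all genes. Among 12 transcription regulators linked to stress keratins, with a median of -0.02, 9 passed, Gli1, the Hedgehog target, being lower (-1.70) and Klf4 higher (0.69). The upper follicle and sebaceous gland genes had a median of 0.68, and 11 of 12 passed. Beside these, the cell division genes had a median of -2.95, the skeletal muscle genes of -2.38, the hair matrix regulators of -1.86 and the inner root sheath genes of -0.91. The hair shaft keratins had a median of 0.98 and the interfollicular epidermal keratins of 0.79. The mean log2(FPKM + 1) of the hair shaft keratins was 7.32 in ventral, 7.59 in chin and 5.44 in dorsal early anagen. By that mean, ventral skin was above dorsal skin only. The mean of the skeletal muscle genes was 4.25 in ventral, 5.06 in chin and 8.12 in dorsal early anagen, so that their difference was mostly from dorsal skin. Krt19, a keratin of simple epithelia, was at 23.6 to 25.7 FPKM in ventral early anagen and 52.9 to 58.1 in ventral refractory telogen, against group means of 1.42 to 6.07 elsewhere in the skin. Upk3a, which encodes a uroplakin of the urinary tract lining, was at 3.11 to 5.94 FPKM in ventral early anagen and at 20.67 and 24.96 in ventral refractory telogen, and had means of 0 to 0.483 elsewhere. Both genes are in no list here and were chosen after their values were seen. The part of these differences in the levels of Krt16 and Krt6a, in ventral early anagen and in the comparisons with ventral refractory telogen, was not tested.

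In competent telogen 6 of 6 members differed among domains, beside 54.0% of all genes. Dorsal skin was above chin skin in Krt16 (4.38 times), Krt75 (2.86 times), Krt17 (1.59 times) and Krt6a (1.47 times) and below it in Krt79 (0.182 times). The dorsal libraries here are those that matched chin late anagen. Between ventral and chin skin alone, chosen after the values were seen, 3 of 6 passed, beside 23.0% of all genes. Ventral skin was lower in Krt16 (-1.04, SE 0.19, adjusted p = 0.00022), Krt6a (-0.58, SE 0.10, adjusted p = 0.00016) and Krt6b (-1.27, SE 0.19, adjusted p = 1.1e-05).

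In refractory telogen 5 of 6 members differed among domains, beside 42.2% of all genes. Chin skin stood apart from both others in Krt75 and Krt79. Krt75 was 2.07 times as high in ventral and 2.21 times as high in dorsal as in chin skin, and Krt79 was 0.441 and 0.43 times as high. Between dorsal and ventral skin, Krt75 differed by 0.10 (SE 0.12) and Krt79 by -0.04 (SE 0.15) on the log2 scale. The chin libraries also held the most skeletal muscle RNA of all groups (mean of 8 genes 9.31, against 5.37 in ventral and 7.42 in dorsal refractory telogen), the least inner root sheath RNA of the 3 (9.08, against 10.5 in both), and the part of these in the difference was not tested.

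In catagen 5 of 6 members differed, beside 42.9% of all genes. Dorsal skin was lower than chin skin in Krt6a (0.216 times), Krt17 (0.292 times), Krt75 (0.352 times), Krt16 (0.621 times) and Krt79 (0.735 times). Between ventral and chin catagen, chosen after the values were seen, 2 of 6 passed, beside 5.19% of all genes, Krt6a (-0.64, SE 0.10, adjusted p = 0.00015) and Krt79 (-0.58, SE 0.14, adjusted p = 0.0097). Dorsal catagen also had the lowest Krt5, the basal keratin, of all groups (486 FPKM, against 956 in chin and 844 in ventral catagen). The mean log2(FPKM + 1) of the cell division genes was 4.61 in dorsal, 4.31 in chin and 4.41 in ventral catagen, and 4 of the 10 genes differed among domains. The part of these in the difference was not tested.

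Mid and late anagen were the stages at which fewest members, and also the smallest shares of all genes, differed among domains. In mid anagen 3 of 6 passed, beside 38.1% of all genes, Krt6a (adjusted p = 0.00094), Krt75 (adjusted p = 0.0057) and Krt79 (adjusted p = 0.03). When the 7 libraries of that stage were fitted alone with limma, 0 of the 5 members tested passed, beside 15.4% of all genes and 1 of them, Krt6a, had an unadjusted p under 0.05. In late anagen 4 of 6 passed, beside 20.8% of all genes. Krt79 was 2.01 times as high in ventral and 1.65 times as high in dorsal as in chin skin, and Krt6a was 0.624 times as high in dorsal as in ventral skin. Krt17 (adjusted p = 0.02) and Krt75 (adjusted p = 0.049) also passed, and leaving out 1 of the 2 chin late anagen libraries left 2 members past the threshold.

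The other keratin and stress genes were read from lists beside the members. In anagen minus telogen, the interfollicular epidermal keratins fell at 6 of 8 genes in chin skin (median -1.16), 7 of 8 in ventral skin (-0.87) and 2 of 8 in dorsal skin (-0.12). Over all genes 34.1% were lower and 8.55% higher in chin anagen, 22.9% and 8.82% in ventral and 10.4% and 21.0% in dorsal anagen, so that lower calls prevailed in chin and ventral skin at large. In chin skin Krt1 (-2.25) and Krt10 (-1.92), the differentiation pair, fell most. All 8 inner root sheath genes rose in chin (median 1.31) and ventral skin (0.99), and 2 of 8 in dorsal skin (0.16). Krt75 of the companion layer had differences of 1.30, 0.64 and -0.07 in the same comparisons, and the median over all genes was -0.17, -0.09 and 0.04. Against these, the upper follicle and sebaceous gland genes fell at 10 of 12 in chin skin (median -0.93), with Far2 (-2.19) and Cidea (-1.75), both of lipid metabolism, in the lead. In ventral skin 6 fell and 2 rose (median -0.25), and in dorsal skin 4 rose and 2 fell (0.21).

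The epidermal stress genes moved in both directions. In chin skin 6 of 15 rose and 5 fell (median -0.14), in ventral skin 6 rose and 3 fell (0.00), and in dorsal skin 3 rose and 5 fell (-0.06). Sprr1b, a cornified envelope precursor, rose in chin (4.22), ventral (5.00) and dorsal skin (2.53). Lcn2, which encodes the iron carrier lipocalin, fell in ventral (-1.51) and dorsal skin (-1.13). Of the 12 transcription regulators, 7 fell in chin and 6 in ventral skin and none rose there, led by Fos (-2.62 and -2.17), while 4 rose and 4 fell in dorsal skin. With refractory telogen alone, the interfollicular keratins fell at 6, 7 and 6 of 8 genes in chin, ventral and dorsal skin (medians -1.13, -0.81 and -0.81), and the inner root sheath genes rose at 8, 6 and 5 of 8 (1.86, 0.61 and 0.44). Krt75 then had 1.35 in chin skin, and 0.06 in ventral and 0.16 in dorsal skin (limma adjusted p = 0.76 and 0.23). The upper follicle genes then fell at 10 and rose at 1 of 12 in chin skin (-1.20), with 3 in each direction in ventral (0.05) and dorsal skin (-0.09). Of the stress genes 6 rose and 5 fell in chin, 5 rose and 3 fell in ventral, and 4 rose and 3 fell in dorsal skin (-0.10, -0.05 and 0.08). Of the regulators 1 rose and 8 fell in chin, 2 rose and 3 fell in ventral, and 2 rose and 6 fell in dorsal skin (-0.47, -0.13 and -0.31). Of all 21257 genes, 7016, 3026 and 2816 were lower and 2725, 3612 and 4365 higher. Skeletal muscle genes moved in these comparisons too, with 8 of 8 lower in chin (median -1.06) and dorsal anagen (-2.46) and 8 of 8 higher in ventral anagen (0.80). With refractory telogen alone 8 of 8 were lower in chin (-3.35) and dorsal skin (-2.19) and 1 of 8 was higher in ventral skin (0.11), and their part in the results was not tested.

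The ear table compared telogen ear skin with dorsal skin and with the ear cartilage and muscle complex. In ear skin Krt75, Krt17 and Krt6a were lower and Krt79 and Krt6b higher than in dorsal skin. Krt75 was at 4.94 and 4.31 FPKM in ear skin and 293.56 and 294.43 in dorsal skin, a log2 difference of -5.72 (SE 0.08). Krt17 was at 635.04 and 579.99 FPKM against 3734.2 and 3680.43 (-2.61), and Krt6a at 64.32 and 54.68 against 255.32 and 253.11 (-2.08). In all 3 the libraries of the tissues did not overlap. Krt79 was at 467.36 and 422.27 FPKM in ear skin against 97.42 and 95.71 in dorsal skin, a log2 difference of 2.19 (SE 0.17). Krt6b was at 32.65 and 28.21 FPKM in ear skin against 0 and 0.07 in dorsal skin, with a difference of 4.92 on the log2(FPKM + 1) scale. This was the only tissue of either table in which Krt6b exceeded 2.3 FPKM, and it stood at 50.8% and 51.6% of Krt6a there. Krt16 was at 80.48 and 70.43 FPKM against 60.21 and 59.88 (0.32, SE 0.11), which missed the threshold (limma adjusted p = 0.051). Thus 5 of 6 members passed, beside 59.3% of the 19299 genes tested, with a median over all genes of 0.33.

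Since these dorsal libraries matched anagen skin, ear skin was also compared with the dorsal refractory telogen libraries of the skin table. The 2 tables give the same values for the dorsal libraries they share. The differences were -5.25 for Krt75, -2.72 for Krt6a, -2.57 for Krt17, 1.10 for Krt79 (adjusted p = 0.0021), 4.88 for Krt6b and 0.28 for Krt16 (adjusted p = 0.11). The same 5 members passed in the same direction, beside 57.5% of all genes tested there. The dorsal group of either comparison held inner root sheath genes that ear skin had at a far lower level, with medians of -7.59 and -7.03 over 8 genes. Over all genes 44.7% were higher and 14.6% lower in ear skin than in dorsal competent telogen, so that higher calls prevailed there at large. Against dorsal refractory telogen the share of 57.5% was not split by direction. The upper follicle and sebaceous gland genes were higher in ear skin at 9 of 12 in both comparisons (median 1.64 and 1.62). Of the interfollicular keratins 6 of 8 were higher than in dorsal competent telogen (median 1.53), and 2 were higher and 3 lower than in dorsal refractory telogen (0.10). Of the 15 epidermal stress genes 5 were higher and 7 lower than in dorsal competent telogen (median -0.29), with Sprr2d higher (4.50) and Sprr2h (-4.70) and Gjb2 (-4.57) lower. Against dorsal refractory telogen 8 were higher and 6 lower (0.35).

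All 6 members were near 0 in the cartilage and muscle complex. Krt17 was at 1.27, 2.27 and 1.19 FPKM, Krt79 at 0.39, 0.84 and 0.3, Krt16 at 0.6, 0.32 and 0.42 and Krt6a at 0, 0.07 and 0. Krt75 and Krt6b were listed at 0 in its 3 libraries. All 6 passed and were lower than in ear skin, beside 66.5% of all genes tested, which passed in either direction. Over all genes 38.5% were lower and 28.0% higher in the complex than in ear skin. The drop was not particular to the members. All 8 interfollicular keratins (median -9.92), all 8 inner root sheath genes (-2.91) and all 12 hair shaft keratins (-2.44) were lower as well. The markers of the labelled tissues were present, with Acan, the cartilage proteoglycan, at 194 FPKM and Acta1, the skeletal muscle actin, at 5355 FPKM, while ear skin had 0.115 FPKM of Acan and 305 FPKM of Acta1.

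**Figure D4:**
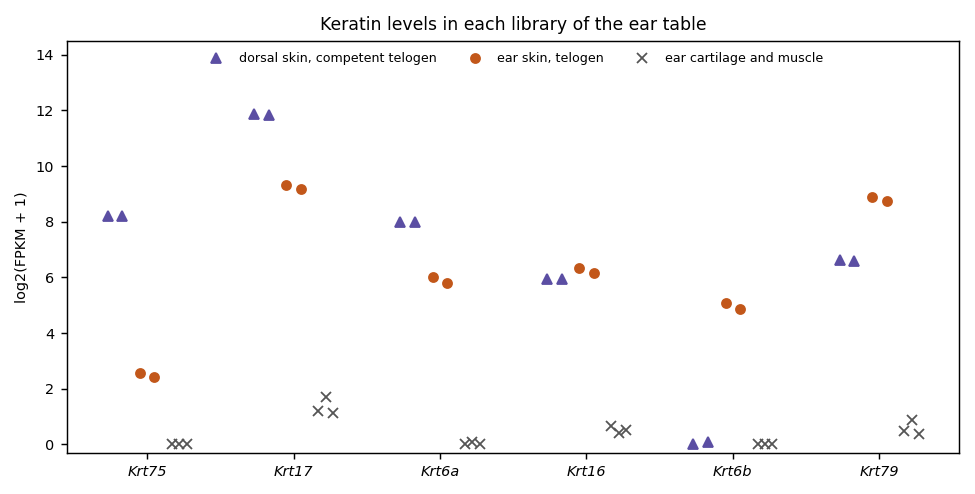
Levels of the 6 keratins as log2(FPKM + 1) in each library of the ear table, for dorsal skin in competent telogen (triangles), ear skin in telogen (circles) and ear cartilage and muscle (crosses). Krt75, Krt17 and Krt6a are lower and Krt79 and Krt6b higher in ear than in dorsal skin, and all 6 are near 0 in the cartilage and muscle complex.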

How the data were processed

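RNA of whole skin and of ear tissues had been made into libraries with SMART-seq2 and Nextera tagmentation and run in paired-end mode. Against mm10 and GENCODE vM8 the authors obtained gene values with RSEM 1.2.25, corrected batch effects by a method that is not given in the sources used here, and deposited FPKM per gene with 2 decimals. The correction may have reduced the spread between replicates. The deposited FPKM values are not counts, so no count model was fitted. The members, gene lists and tests were chosen with earlier results of these data known.

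The log2 scale had a pseudocount of 1. A gene was tested where 2 or more libraries reached 0.5 FPKM, which left 21257 genes in the 43 skin libraries and 19299 in the 7 ear libraries. Group means were fitted with limma 3.58.1 in R 4.3.3 with a variance trend, and p-values of contrasts and F-tests were adjusted over all genes after Benjamini and Hochberg. The limma steps were tested on simulated data. In each comparison the 6 members were named, from each list up to 4 genes with the largest difference among those that passed, and for each member the 3 genes most like it, of which 1 is not reported here. Markers used to check the labels were named with their level. Ear skin columns are numbered 2 and 3 and were used as 2 unnumbered replicates. Replicate numbers were not used to pair libraries in the main fits, because the sources used here do not say that a number marks 1 mouse. The median correlation of deviations was 0.003 over 327 same-numbered pairs from different groups. A median over all groups cannot exclude pairs in some of them.

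Approximate depth, read from the FPKM value of a single fragment, was 6.501e+06 to 2.436e+07 fragments per skin library and 6.767e+06 to 2.91e+07 per ear library, which limits counting error only. Coding sequences came from GENCODE vM21 and were aligned with Biopython 1.88. Alternatives were a pseudocount of 0.1, no filter, a minimum of 5 FPKM, TPM rescaling, median of ratios scaling, quantile normalization, no variance trend, a replicate block, single telogen or anagen labels, libraries of 1 stage or domain only, dorsal refractory telogen as the dorsal group beside the ear, and fits that left out 1 library each. The comparisons of only 2 domains and the stage tests without early anagen or catagen were chosen after seeing the data. Il36a, Krt85 and Snorc of the lists were not analysed here.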

Additional observations from a re-analysis of the deposited data

Results flagged for a closer look

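Each keratin was marked for a closer look because its difference between anagen and telogen was not the same in chin, ventral and dorsal skin (limma F-test of the difference, adjusted over all genes). The adjusted p was 4.673e-11 for Krt79, 5.787e-10 for Krt75, 3.757e-06 for Krt6a, 1.857e-05 for Krt16, 0.001181 for Krt6b and 0.02054 for Krt17. Krt79 fell by 1.70 in chin and by 0.79 in ventral skin and rose by 0.28 in dorsal skin on the log2 scale, and Krt75 differed by 1.30, 0.64 and -0.07. Krt6a and Krt16 fell in dorsal skin (-0.67 and -0.68), where the other domains had -0.01 and 0.14 (chin) and 0.03 and 0.60 (ventral). The dorsal competent telogen libraries enter these tests and match chin late anagen. With refractory telogen alone Krt6b (adjusted p = 0.92) and Krt17 (adjusted p = 0.36) no longer passed.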

How the results depend on the processing

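Of the counts of members past the threshold, those within 1.5 times of the reported count under every alternative run were chin anagen minus telogen, the stage tests, the interaction, the ear comparisons and the domain test in refractory telogen. The exceptions were 2 of 6 in ventral anagen minus telogen with refractory telogen only, 2 in late anagen without a filter, 5 in mid anagen after quantile normalization and 0 of 5 tested when the mid anagen libraries were fitted alone (limma, 1 at an unadjusted p under 0.05), and the comparisons of 2 domains in early anagen (3), competent telogen (3) and catagen (2), which leave out the third domain. Leaving out single libraries gave 2 to 4 in dorsal anagen minus telogen, 4 to 6 among domains in early anagen, 2 to 4 in mid anagen and 2 to 4 in late anagen. Directions turned for these members. In chin skin Krt16 was -1.39 against refractory telogen and -0.31 in mid anagen only, and Krt6a was 0.26 with median of ratios scaling, 0.35 against competent telogen, 0.21 in late anagen only and -0.1169 to 0.1052 with 1 library left out. In ventral skin Krt6a was -0.81 and Krt16 -1.28 against refractory telogen, Krt6a -0.527 and Krt6b 0.0656 in mid anagen only, and with 1 library left out Krt6a was -0.017 to 0.0606 and Krt6b -0.2263 to 0.0411. In dorsal skin Krt75 was 0.0562 with TPM rescaling and 0.16 against refractory telogen, Krt79 was -0.27 and Krt6b -0.0026 against refractory telogen, and Krt6b was -0.0187 to 0.0441 with 1 library left out. Krt16 in ear minus dorsal skin was above 0 in 14 of 15 alternatives, up to 0.57, and passed the threshold in some of them. It was -0.16 with median of ratios scaling. That scaling moved the median of all genes from -0.17 to -0.01 in chin skin and from 0.33 to 0.02 in the ear comparison. With the replicate number as a block, 4 of 6 members passed in anagen minus telogen of each domain, as without it. Among domains 4, 2 and 3 passed in early, mid and late anagen. Whether the numbers pair libraries is not known. For the ear, no paired analysis was possible because the ear skin columns are numbered 2 and 3 and the sample titles 1 and 2, so that which library bears which number is not known. Krt6b values of a few fragments limit what can be said of it in skin.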
